A study of Mus musculus with 2 samples.

Results

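The genes described here are the nuclear-encoded genes of oxidative phosphorylation: protein-coding genes of the GENCODE M21 annotation whose symbols begin with Nduf, Uqc, Atp5 or Cox4 to Cox8, together with Sdha to Sdhd, Cycs and Cyc1. By this symbol rule there were 99 genes among 55536 GENCODE genes and 22028 protein-coding genes. They carry 98 symbols, because Atp5o was listed under 2 gene identifiers. The genes lay on 19 chromosomes, with 3 of them (Ndufa1, Ndufb11 and Cox7b) on X. They were measured by RNA-seq of polyadenylated RNA from inflammation-experienced regulatory T cells, described in the labels as primary cells derived from activated regulatory T cells of 7-week-old male mice. The labels name no strain, genetic modification, treatment agent or comparison group. The sequenced material was 1 biological replicate, from which 2 technical replicates were made, here library 1 and library 2, so that the SD between libraries (n = 2) measures technical spread and not spread between animals.

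Oxidative phosphorylation takes place in the inner mitochondrial membrane. Complex I and complex II pass electrons from NADH and succinate to coenzyme Q, complex III passes them on to cytochrome c, and complex IV passes them to oxygen, while complexes I, III and IV pump protons across the membrane. ATP synthase uses the return of the protons to make ATP. Most subunits are encoded in the nucleus and a small core in mitochondrial DNA, and regulatory T cells are known to rely on mitochondrial respiration more than effector T cells do.

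The depth over GENCODE genes was 26593267 expected counts in library 1, against 22036331 in library 2. The 99 genes took 0.872% of the counts in library 1 and 0.816% in library 2, and their TPM values summed to 18221 and 17198. The T cell markers Cd3d, Cd3e, Cd3g, Cd4, Cd2 and Lck and the regulatory T cell markers Foxp3, Il2ra, Ctla4, Ikzf2, Tnfrsf18 and Izumo1r were all detected in both libraries. The T cell markers summed to a TPM of 5392 (library 1) and 5371 (library 2), and the regulatory T cell markers to 1265 and 1101. By the test given below, 1 T cell marker was called higher in each library. Of the regulatory T cell markers, 4 were called higher in library 1 and 1 in library 2, against 23.9% and 46.4% of all genes tested. The libraries also differed in other markers. The 6 erythroid markers, led by globin genes, summed to a TPM of 8494 (library 1) and 94.7 (library 2). The 6 proliferation markers summed to 93.3 and 20.6, and the 6 macrophage markers to 29.7 and 62.1, with C1qc at 0 counts in library 1 and 223 counts in library 2. By the test between libraries given below, 5 proliferation markers were called higher in library 1 and 1 in library 2. Of the macrophage markers, 1 was called higher in library 1 and 5 in library 2. The 5 B cell markers summed to 601 and 546, and the 4 natural killer cell markers to 159 and 241, with Ncr1 at 0 counts in library 1 and 5 counts in library 2. The part of these differences in the results below was not tested. In bulk RNA, a change in the number of cells of a type and a change in RNA per cell cannot be told apart.

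Promoter sequences were available for 80 of the 98 symbols, as 85 windows reaching from 250 bases before to 50 bases after a gene start (RefSeq, GRCm38.p6). These windows were searched on both strands for the binding motifs of nuclear respiratory factor 1 (NRF1, GCGCANGCG), of ETS factors such as GABP (CCGGAAG) and of YY1 (AAGATGGCG), which are known regulators of respiratory genes, and for the TATA box (TATAAA). Matches of different motifs were counted separately, also where they overlapped. The NRF1 motif was found in 29.4% of the windows of the 80 symbols, in 14.0% of 10956 windows of detected protein-coding genes and in 6.25% of all 32851 windows. These letters were adopted after the values of a longer form, with 1 further C at its end, had been seen, and that form was found in 24.7%, 10.7% and 4.6%. The YY1 motif was found in 9.41%, 3.29% and 1.4% of the same windows, and the ETS motif in 21.2%, 19.1% and 8.86%. At least 1 of these 3 motifs was present in 49.4% of the windows of the 80 symbols, 32.0% of those of detected protein-coding genes and 14.8% of all. TATAAA was present in 9.41%, 7.0% and 13.6%. The median number of CpG dinucleotides per window was 20, 21 and 7. A match describes the letters in the window and does not show binding.

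The windows below show the contrast between a highly expressed gene and a silent one of the same family, and the highest-level genes with a match to the NRF1 and the YY1 motif. Cox8a encodes the broadly expressed form of a small complex IV subunit and Cox8b its heart and muscle form. Atp5h and Atp5j encode parts of the stalk of ATP synthase, and Atp5j has another annotated start that is not shown. Sequences run 5′ to 3′ on the gene's strand, which is the minus strand for all 4, and capitals mark motif matches. The Cox8a window (chr19:7217567-7217866) held 19 CpG and 2 ETS matches, and the Cox8b window (chr7:140900397-140900696) held 2 CpG and 1 TATAAA match. The Atp5h window (chr11:115419870-115420169) held 32 CpG with 1 NRF1 and 1 ETS match, and the Atp5j window (chr16:84834927-84835226) held 18 CpG with 1 YY1 and 1 ETS match.
Cox8a: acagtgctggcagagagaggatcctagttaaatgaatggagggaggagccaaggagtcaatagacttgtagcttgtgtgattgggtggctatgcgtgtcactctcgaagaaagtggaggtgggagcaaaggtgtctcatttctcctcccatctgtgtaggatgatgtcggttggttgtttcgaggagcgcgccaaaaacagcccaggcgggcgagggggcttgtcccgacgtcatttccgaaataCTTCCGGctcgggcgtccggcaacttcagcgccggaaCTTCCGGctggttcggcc
Cox8b: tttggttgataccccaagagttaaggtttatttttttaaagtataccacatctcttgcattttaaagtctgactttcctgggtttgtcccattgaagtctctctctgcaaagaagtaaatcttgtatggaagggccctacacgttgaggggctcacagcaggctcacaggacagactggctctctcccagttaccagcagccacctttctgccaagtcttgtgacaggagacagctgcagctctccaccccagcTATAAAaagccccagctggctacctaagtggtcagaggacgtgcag
Atp5h: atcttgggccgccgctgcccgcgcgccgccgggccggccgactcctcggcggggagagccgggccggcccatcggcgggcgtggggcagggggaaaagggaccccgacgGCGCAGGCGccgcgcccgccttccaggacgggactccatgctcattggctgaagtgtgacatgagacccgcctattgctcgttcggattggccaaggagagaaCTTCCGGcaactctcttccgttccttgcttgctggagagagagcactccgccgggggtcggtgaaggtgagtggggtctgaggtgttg
Atp5j: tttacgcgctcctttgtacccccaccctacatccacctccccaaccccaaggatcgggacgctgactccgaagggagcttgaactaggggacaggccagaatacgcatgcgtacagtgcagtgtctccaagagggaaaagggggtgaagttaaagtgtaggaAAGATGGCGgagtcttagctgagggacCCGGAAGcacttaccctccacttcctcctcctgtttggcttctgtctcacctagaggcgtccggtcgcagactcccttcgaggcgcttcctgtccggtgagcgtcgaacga

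A gene was called detected when its TPM, which is the authors' level per transcript length, was at least 1 in both libraries. Of the 99 genes, 92 were detected, a share of 92.9%, against 49.1% of all protein-coding genes. The 7 genes that were not detected all encode alternative forms of complex IV subunits, and every gene of complexes I, II and III and of ATP synthase under the symbol rule was detected. The median level of the 92 detected genes was a TPM of 170 (library 1) and 151 (library 2). Across all 10818 detected protein-coding genes the medians were 29.6 and 29.9. A TPM mean of at least 100 was reached by 70 of the genes. The detected genes were short, with a median length of 657 bases against 2265 for detected protein-coding genes. Across the 92 detected genes the log2 TPM values of both libraries had a Pearson correlation of 0.976, and the median absolute difference between the libraries was 0.14 on the log2 scale, which is given as a description since genes are not replicates.

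**Figure D1:**
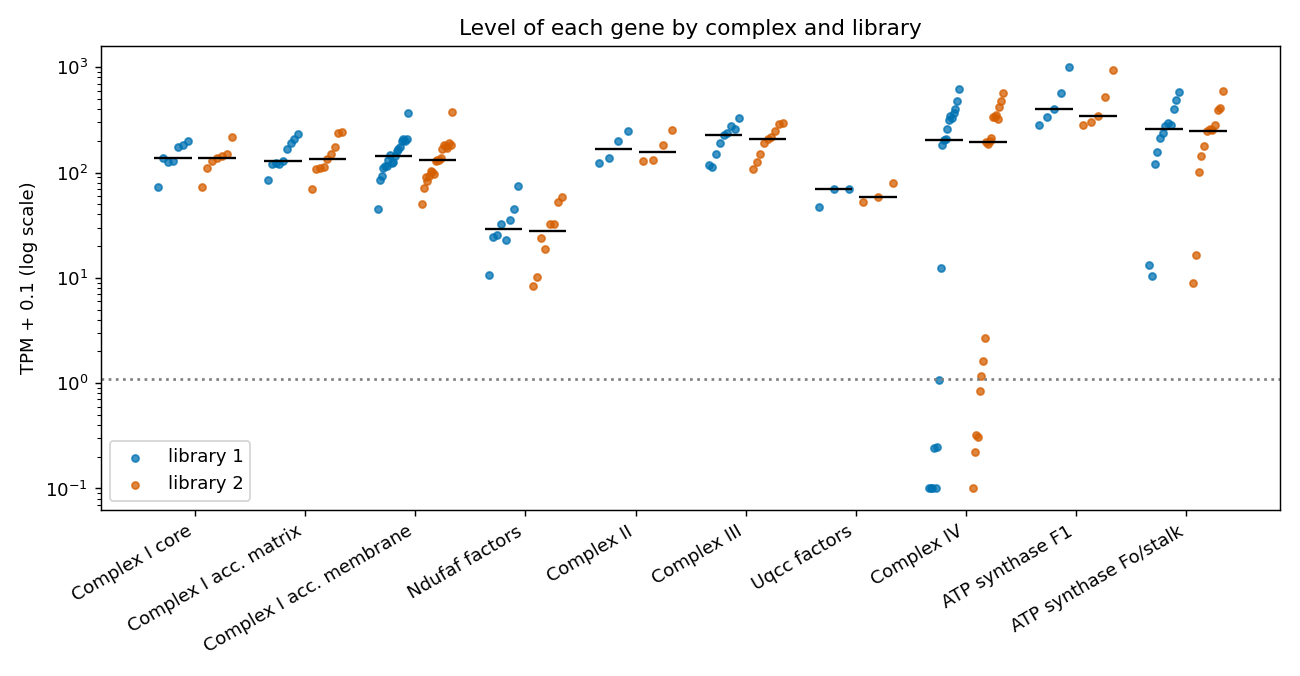
Level of each gene by complex, as TPM + 0.1 on a log axis, with library 1 left of library 2 in each group; each point is 1 gene, the black line is the group's median and the dotted line the detection threshold. The ATP synthase F1 group has the highest medians (398 and 344), the Ndufaf assembly factors lie lower (28.7 and 28.0), and complex IV is the one group with points under the threshold.

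Complex I, the NADH dehydrogenase, was represented by 36 subunits and 8 assembly factors, all detected. The 36 subunits had a median TPM of 141 in library 1 and 133 in library 2, and they spanned a 7.82-fold range of mean levels. Among the 7 core subunits of the matrix arm, which carry the flavin and the iron-sulfur clusters, Ndufs7 was highest at a TPM of 200 (library 1) and 218 (library 2). It holds the cluster next to the coenzyme Q site. Ndufv2, which carries an iron-sulfur cluster near the flavin, had 184 and 149. Ndufs1, the largest subunit, was lowest of the core at 72.1 and 73.6, below Ndufs8 at 138 and 110. The core subunits thus stayed within a 2.87-fold range of mean TPM.

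Among the 9 accessory subunits of the matrix arm, Ndufa7 (233.7 and 243), Ndufa6 (209 and 238) and Ndufa2 (189 and 176) had the highest TPM values in library 1 and library 2. The lowest were Ndufs6 (121 and 109) and Ndufa12 (85.4 and 70.2). Ndufa12 takes its place in complex I late in assembly. Among the 19 accessory subunits of the membrane arm, Ndufa3 was the most abundant nuclear complex I gene, at a TPM of 367 (library 1) and 377 (library 2). Ndufa10 (207 and 182) and Ndufb10 (198 and 190) came next by mean level. Ndufb6 (84.5 and 71.2) and Ndufb4 (44.5 and 50.6) were the lowest, and the Ndufb4 level depended on how reads were divided with a pseudogene copy, as given further on. Ndufab1, the mitochondrial acyl carrier protein that sits at more than 1 position in complex I, was at 197 and 172.

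The Ndufaf genes encode factors that help assemble complex I and are not part of the finished enzyme. Their median TPM was 28.7 in library 1 and 28.0 in library 2, below that of the subunits, and the median of their mean levels stood at percentile 46.6 of detected protein-coding genes, against 88.2 for the subunits. Ndufaf8 was highest at 74.1 and 58.3, and Ndufaf3 had 44.8 and 52.4. Ndufaf4, which acts together with Ndufaf3, had 35.6 and 32.7. Ndufaf2 was the lowest at 10.4 and 8.2. Ndufaf5, which in humans hydroxylates an arginine of the Ndufs7 protein, was at 24.6 in library 1 and 10.2 in library 2, and the libraries differed in it more than in any other complex I gene.

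Complex II, succinate dehydrogenase, has 4 subunits, all nuclear. Sdha, the flavoprotein that oxidizes succinate, was highest at a TPM of 250.3 (library 1) and 252 (library 2). Sdhb, the iron-sulfur subunit, had 198 and 181. The membrane anchors were lower, with Sdhd at 138 and 133 and Sdhc at 124 and 129. The range of mean levels over the 4 genes was 1.98-fold.

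Complex III was represented by 9 subunits with a median TPM of 227 in library 1 and 206 in library 2. Uqcrh, the hinge protein that helps cytochrome c1 meet cytochrome c, was highest at 332 and 298. Uqcrc1, a core protein, had 259 and 287, and Uqcr10, a small subunit, had 275 and 248. Uqcrc2, the other core protein, was lower at 112 and 126. Uqcrfs1, the Rieske iron-sulfur protein, was at 117 and 108, the lowest by mean level, although Uqcrc2 was the lower of the pair in library 1. Cyc1, which encodes cytochrome c1, was at 193 and 191. The assembly factors Uqcc2 (69.5 and 78.7), Uqcc3 (70.1 and 58.1) and Uqcc1 (47.4 and 52.5) were lower than each of the subunits. Cycs, which encodes the mobile carrier cytochrome c, was listed at only 22.1 and 25.3, a value that rests on the division of reads with near-identical copies.

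Complex IV, cytochrome c oxidase, was split between abundant forms and forms at or near 0. Of its 19 nuclear genes, 12 were detected, with a median TPM of 320 in library 1 and 328 in library 2. Cox4i1, the broadly expressed form of the largest nuclear subunit, was highest at 623 and 564. Cox6b1 followed with 475 and 480, and Cox6a1 with 402 and 418. Ndufa4, first described as a complex I subunit and now assigned to complex IV, had 369 and 321. Cox7a2l, which joins complexes III and IV into supercomplexes, was at 197 and 186.

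Complex IV subunits that come in alternative forms were compared within their families. Cox4i1 held 99.8% of the TPM of its family in library 1 and 99.7% in library 2, against Cox4i2, the form known from lung and hypoxia, which had 11 and 14 counts. Cox6a1 held 100.0% and 99.97%, and the heart and muscle form Cox6a2 had 0 and 1 counts. Cox7b held 100.0% and 99.6%, and Cox7b2 had 0 and 5 counts. Cox8a held 99.96% and 99.7%, while Cox8b had no count in either library and Cox8c, a testis form, had 1 and 6 counts. At a count of 0, up to 3 counts remain possible, or 0.113 CPM (counts per 1e6) in library 1, against 0.136 CPM in library 2. Ndufa4l2, which is induced by hypoxia in several cell types, had 0 and 1 counts, against 2522 and 1792 for Ndufa4. The muscle form Cox7a1 had 1 count in each library, and the rest of that family was divided between Cox7a2 (51.4% and 51.5%) and Cox7a2l (48.6% and 48.4%).

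Cox6b2, the testis form of a subunit on the cytochrome c side of complex IV, was the one alternative form that passed the detection threshold. It had 85 counts and a TPM of 12.2 in library 1, against 13 counts and 2.57 in library 2, so that Cox6b1 held 97.5% and 99.5% of the family. The marker list for testis gave a summed TPM of 1.92 in library 1 and 2.19 in library 2, none of its 5 genes was detected, and Prm2 was at 0 in both libraries. The 5 striated muscle markers summed to 10.6 and 13.6. Of these, 3 were detected at low levels, and Myl1 was at 0 in both libraries.

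**Figure D2:**
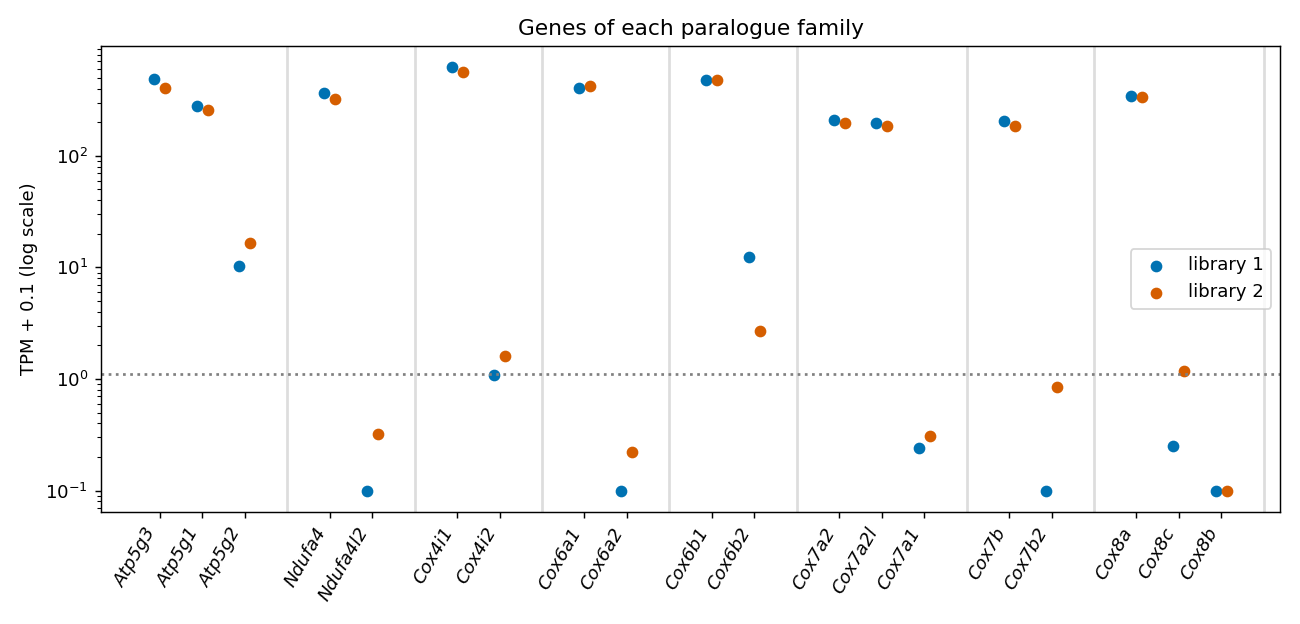
Level of each gene in 8 families of alternative forms, as TPM + 0.1 on a log axis, with library 1 left of library 2 for each gene and the dotted line at the detection threshold. Cox4i1 (623 and 564), Cox6a1, Cox6b1, Cox7b, Cox8a and Ndufa4 lie far above their partners, of which Cox6b2 (12.2 and 2.57) is the highest, and Cox7a2 and Cox7a2l lie side by side.

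ATP synthase had the most abundant single gene. Atp5b, which encodes the catalytic beta subunit (chr10:128083273-128090391, plus strand, mm10), had 26240 and 19699 expected counts and a TPM of 1005 (library 1) and 937 (library 2), the highest of all 99 genes. Atp5a1, the alpha subunit, had 569 and 518, and Atp5c1, the gamma subunit of the rotating shaft, had 398 and 344. The small F1 subunits Atp5e (339 and 300.2) and Atp5d (283 and 285) were lower. In the membrane sector and stalk, Atp5h was highest at 588 and 591, followed by Atp5g3 at 488 and 407 and Atp5j at 399.7 and 393. The genes Atp5g1, Atp5g2 and Atp5g3 encode the same mature subunit c, which forms the rotating ring. Atp5g3 held 62.8% and 59.6% of their summed TPM in library 1 and library 2, Atp5g1 held 35.9% and 38.0%, and Atp5g2 held 1.32% and 2.40%. These shares rest on how reads were divided with pseudogene copies, among them Gm10175, which was listed with TPM values of 255 (library 1) and 215 (library 2), against 10.2 and 16.4 for Atp5g2. Atp5s, which encodes a factor related to coupling that is not a core subunit, was low at 26.7 and 15.4.

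Atp5o, the subunit that links the stalk to the F1 head, was listed as 2 overlapping genes on chromosome 16. The shorter one (chr16:91925214-91931687, minus strand, mm10) had 2280 and 1675 expected counts, for a TPM of 215 (library 1) and 181 (library 2). The longer one (chr16:91684398-91926982, minus strand, mm10) had 105 and 57.3 expected counts and a TPM of 13.2 and 8.78. Of the 50-base windows of its transcript, 89.8% were also found in other genes, among them Donson and the first Atp5o gene.

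The genes encoded in mitochondrial DNA give the other part of the same complexes. The 13 protein-coding ones summed to a TPM of 26502 (library 1) and 27767 (library 2), more than the 99 nuclear genes together. They had a median of 1519 and 1459, which stands at percentile 99.5 of detected protein-coding genes by mean level. The highest by mean level were mt-Co3 (6383 and 6878), mt-Atp6 (4612 and 4833) and mt-Co1 (3413 and 3729). mt-Nd4l was the lowest by mean level, at 246 and 195.

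The question that 2 technical libraries can address is how far the levels differ between libraries of the same sample. For each gene, the division of its expected counts was set against each library's share of the total by an exact binomial test (2-sided), with Benjamini-Hochberg adjustment over all 24253 tested genes. Of all tested genes, 70.3% were called at an adjusted p under 0.05, 23.9% of all tested genes being higher in library 1 and 46.4% in library 2. At that background, a call between the libraries is common and shows counting error to be exceeded, not a difference between conditions. Of the 93 oxidative phosphorylation genes tested, 47 were called higher in library 1 and 8 in library 2, while 38 were not called. A difference of at least 1.5-fold was called for 6 genes higher in library 1 and 1 higher in library 2, against 11.7% and 35.0% of all genes tested.

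These genes are mostly abundant, so that the 3727 protein-coding genes with a mean TPM of at least 50 are a closer background. Of those, 37.6% were called higher in library 1 and 34.3% higher in library 2, and 1.40% and 1.37% at 1.5-fold or more. Among the 78 oxidative phosphorylation genes at that level, 41 were called higher in library 1 and 6 higher in library 2, and 1 and 0 differed by at least 1.5-fold. The median log2 ratio of library 1 over library 2 was 0.12 over the 93 genes tested, against 0.01 for protein-coding genes at a TPM of at least 50 and -0.0037 for all detected ones. By complex, the median log2 ratio was 0.13 for the 36 complex I subunits, 0.28 for the Ndufaf factors, 0.06 for complex II, -0.01 for complex III subunits, 0.07 for detected complex IV subunits and 0.13 for ATP synthase subunits. In the smaller deposited gene table, 92 of these genes were tested, and 9 were called higher in library 1 and 4 higher in library 2, against 22.1% and 32.2% of all 14432 genes tested there. The closer background there was 15.6% and 23.9% of 3675 protein-coding genes at a TPM of at least 50, of which the 78 genes at that level had 5 and 4 calls. The median log2 ratio in the smaller table was -0.03 over the 92 genes, against -0.03 for that background and 0.000624 for all detected protein-coding genes tested there. The direction of the median, and its distance from the background, thus depend on which table is read.

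Few single genes stood far from 0. Among called genes with at least 100 counts, Ndufaf5 (chr2:140170649-140203689, plus strand, mm10) had the largest ratio, with 456 and 154 expected counts and a log2 ratio of 1.29 (95% exact binomial interval 1.03 to 1.57, covering counting error only, adjusted p = 2.27e-23 from the exact binomial test). In the smaller table it had 371 and 154 counts and a log2 ratio of 1.08. Atp5s followed at 0.68 (368 and 190 expected counts), then Ndufaf6 at 0.68 (363 and 188), which takes part in complex I assembly, the longer Atp5o at 0.60 and Ndufc1, a membrane-arm subunit, at 0.59 (651 and 358). For the longer Atp5o, with 105 and 57.3 expected counts, the posterior SD in the deposited table was 31.1% of the count in library 1 and 51.3% in library 2, so that its ratio is uncertain. Ndufaf5, Atp5s and Ndufaf6 shared no 50-base window with another gene, and the ratios of Atp5s, Ndufaf6 and Ndufc1 in the smaller table were 0.72, 0.58 and 0.59. Cox6b2, with 98 counts over both libraries, reached 2.39 on the log2 scale (exact binomial test, adjusted p = 7.86e-11) and 2.21 in the smaller table. These 6 genes were picked as higher in library 1, so their direction was fixed by the choice. Called higher in library 1 were 6 erythroid, 5 B cell, 5 proliferation, 4 regulatory T cell, 1 T cell and 1 macrophage marker. Called higher in library 2 were 5 macrophage, 2 natural killer cell, 1 proliferation, 1 regulatory T cell, 1 T cell and 1 striated muscle marker. The part of these markers in the result was not tested.

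On the side of library 2, Atp5g2 had a log2 ratio of -0.61, with 116 and 147 expected counts. Ndufaf3 had -0.34 (519 and 545 expected counts), and the complex III core proteins Uqcrc2 and Uqcrc1 had -0.19 and -0.18. Ndufa6 had -0.16. Both core proteins were also called in the smaller table, at -0.17 and -0.16, while Atp5g2, Ndufaf3 and Ndufa6 were not. Scaling by TMM or by DESeq2 size factors left Ndufa6 uncalled. Atp5b and Atp5a1 were called in opposite directions by the tables, with log2 ratios of 0.14 and 0.12 in the large table and -0.16 and -0.14 in the smaller one.

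**Figure D3:**
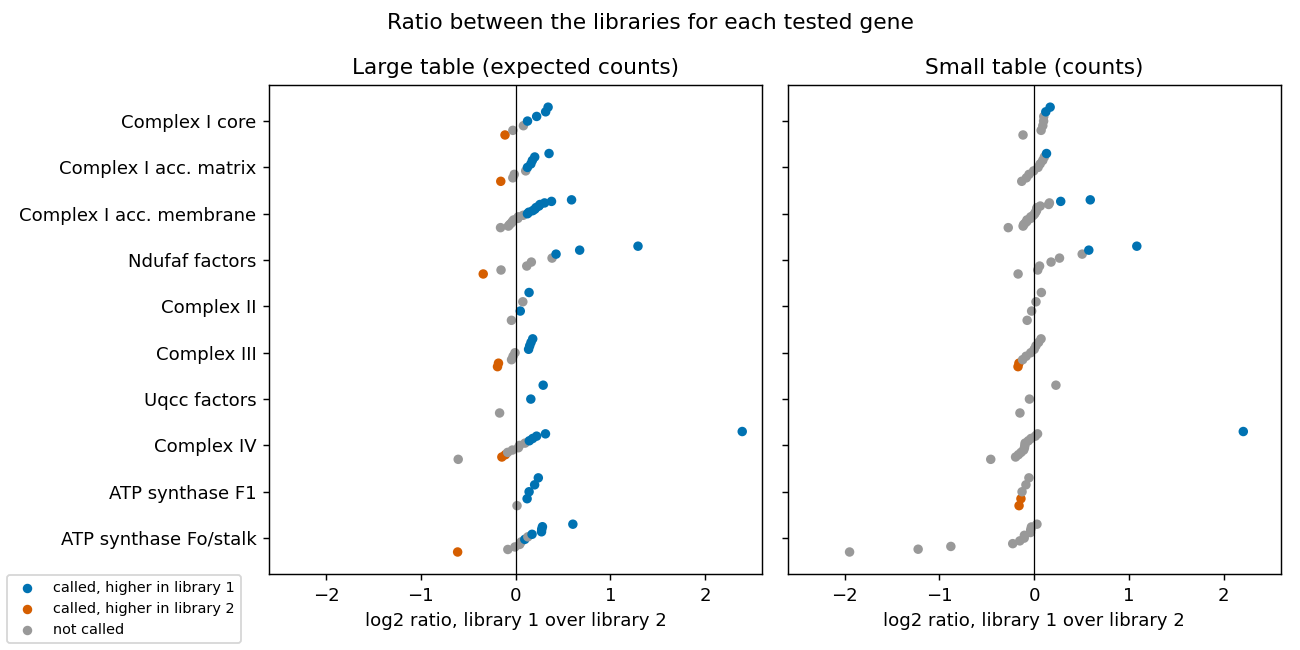
log2 ratio of library 1 over library 2 for each tested gene by complex, from the large table of expected counts (left) and the smaller table of counts (right); colours give the call at an adjusted p under 0.05. Most points lie within 0.5 of 0 in both panels, Ndufaf5 (1.29 and 1.08) and Cox6b2 (2.39 and 2.21) lie far to the right in both, and the ATP synthase F1 points lie right of 0 in the left panel and left of 0 in the right panel.

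In the large table the mitochondrially encoded protein-coding genes were split by complex. All 7 mt-Nd genes of complex I were called higher in library 1, with mt-Nd3 at 1552 and 808 expected counts and a log2 ratio of 0.67. The complex III and IV genes mt-Cytb, mt-Co1, mt-Co2 and mt-Co3 and the ATP synthase gene mt-Atp6 were called higher in library 2, at log2 ratios between -0.16 and -0.05. mt-Atp8 was not called, at -0.05. With TMM or DESeq2 size factors the log2 ratio of every gene rises by about 0.1, so that directions this close to 0 depend on the scaling. Of the 13 genes, 7 had enough counts to be tested in the smaller table, and of those 0 were called higher in library 1 and 6 higher in library 2. Among these, mt-Nd1, mt-Nd4, mt-Nd5 and mt-Nd6 turned round, with log2 ratios of -0.16, -0.17, -0.11 and -0.17, while mt-Nd2 was not called at -0.06.

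The smaller gene table held whole-number counts from an mm10 alignment with GENCODE M4, 29.7% as many as the large table in library 1 and 31.6% in library 2. Among the detected genes described here the median count in the smaller table was 30.7% of that in the large table, against 46.7% for 10699 detected protein-coding genes. The share fell with the density of counts. Atp5b had 16.7 expected counts per base of effective length in library 1 and 12.5 in library 2 in the large table, but 1.96 and 1.92 in the smaller one. Ndufaf5 had 0.408 and 0.138 per base in the large table and 0.332 and 0.138 in the smaller one. Over the 57 detected genes with under 5% of their windows shared, the Spearman correlation between density and share, both of library 1, was -0.769. Over all detected protein-coding genes it was -0.328, and both values are descriptions across genes of the same library. The large-table count is part of the density and the divisor of the share, so a negative value is partly built in. The sources used here do not state whether either table was made after removal of duplicate reads, and the part of such a step was not tested.

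Another difference between the tables concerned genes with near-identical copies. Transcripts of 43 of the 99 genes shared no 50-base window with any other annotated gene, and 35 shared 5% or more of their windows. For 7 detected genes the smaller table held under 5% of the large table's count. Atp5g1 had 8 and 17 counts in the smaller table, against 2578 and 1997 in the large one, and shared windows with the processed pseudogene Gm10039. Atp5l, a small membrane subunit of ATP synthase, had 14 and 23 against 1488 and 1305, and Gm10221 has all of its windows within Atp5l. Ndufab1 (47 and 35), Cox7c (47 and 41), Cox7a2l (144 and 132), Cycs (11 and 12) and Atp5g2 (2 and 8) were the others.

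Levels of such genes depend on how the authors' estimate divided the reads. Cycs had 815 and 645 expected counts, while Gm10053, a gene annotated as protein-coding that shares 94.4% of its windows with Cycs, had 2257 and 1704 and a TPM of 152 (library 1) and 140 (library 2). Gm10053 had 0 counts in the smaller table in both libraries. Atp5g2 had 116 and 147 expected counts, and its copy Gm10175, a transcribed processed pseudogene whose windows all lie within Atp5g2, had 2498 and 1705. The posterior SD of the Atp5g2 count in the deposited table was 26.2% of the estimate in library 1 and 23.4% in library 2. Ndufb4 had 360 and 333, and Ndufb4c, a processed pseudogene with all its windows in Ndufb4, had 645 and 669. For Cox7c, with 1157 and 1060 expected counts, the copies Gm12338 and Gm10012 had 704 and 489, and 470 and 254. The low listed levels of Cycs, Atp5g2, Ndufb4 and the longer Atp5o are therefore uncertain, and their ratios between the libraries too.

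**Figure D4:**
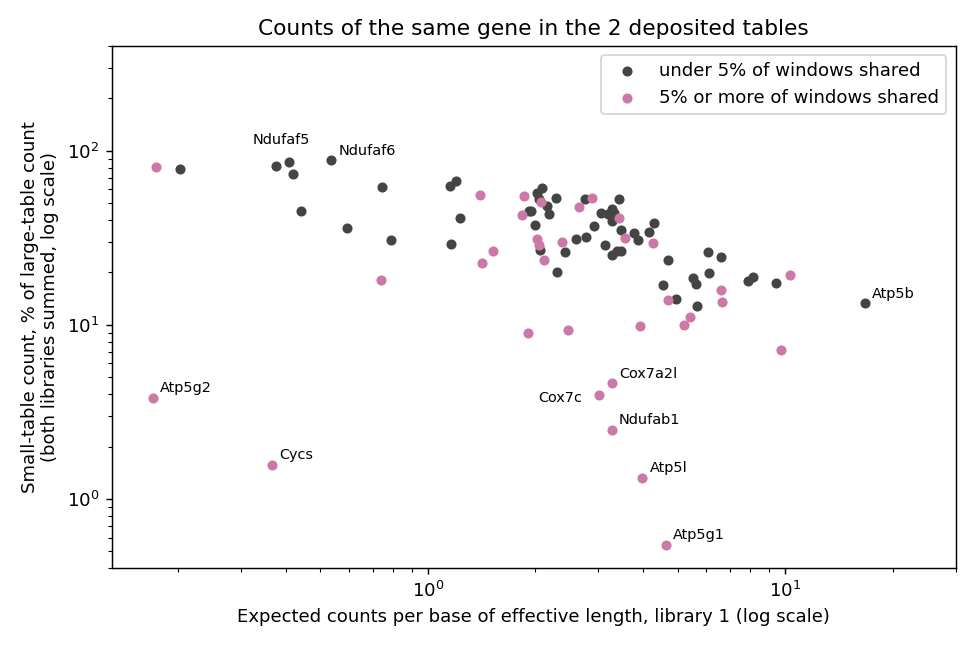
Count in the smaller table as a percent of the expected count in the large table (both libraries summed) against expected counts per base in library 1, both on log axes; each point is a detected gene and colour gives whether 5% or more of its windows are shared. Genes with under 5% shared windows fall along a band from Ndufaf6 (88%) to Atp5b (13.3%), and the 7 labelled genes under 5% of the large count all share 5% or more of their windows.

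The transcript table divides each gene among its annotated transcripts. Transcripts of the same gene share reads, so the shares rest on how the authors' estimate divided them. For 86 of the 92 detected genes, the leading transcript did not differ between the libraries, a share of 93.5%, against 82.7% of other detected protein-coding genes. Genes with only 1 annotated transcript, such as Ndufa1 and Ndufb3, could not differ. The other genes, here and in the values that follow, were not matched for level or for number of annotated transcripts. The median share of the most abundant transcript was 80.6% in library 1 and 78.2% in library 2. For 25 genes in library 1 and 22 in library 2, the most abundant transcript was not annotated as protein-coding, which is 27.2% and 23.9%, against 14.2% and 15.5% of other detected protein-coding genes. In total, coding transcripts took 71.8% and 71.0% of the TPM of the detected genes, and 78.4% and 78.0% in other detected protein-coding genes. Transcripts annotated as processed transcript took 11.4% and 12.2%, against 5.74% and 5.73%.

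The complexes differed in this division. Coding transcripts took 93.0% and 91.0% of complex II TPM, but 62.7% and 61.7% of complex I TPM, where retained-intron transcripts took 15.4% and 16.0% and transcripts annotated for nonsense-mediated decay 9.67% and 9.9%. Ndufa3, the most abundant nuclear complex I gene, had 91.7% and 87.6% of its TPM in Ndufa3-204, a transcript of the decay class. Ndufb4 had 85.1% and 85.8% in the retained-intron transcript Ndufb4-202. In complex IV, Cox7a2 had 90.4% and 90.3% in Cox7a2-203, a processed transcript, and Cox7b had 80.0% and 77.1% in Cox7b-203, a retained intron. In ATP synthase, Atp5j had 71.7% and 71.6% in Atp5j-208, a retained intron, Atp5l had 78.0% and 84.4% in Atp5l-203, a processed transcript, and Atp5f1 had 67.0% and 63.1% in the decay-class Atp5f1-203. Cyc1 (Cyc1-203, 41.6% and 39.9%) and Uqcrh (Uqcrh-205, 61.3% and 57.8%) gave the same picture in complex III. Several of these transcripts are short, such as Ndufa3-204 at 343 bases and Atp5l-203 at 295. TPM already allows for length, but the shares rest on how reads common to several transcripts were divided. That division was not tested, so the shares do not show that most mRNA of these genes is non-coding.

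The other genes whose leading transcript over both libraries was not coding were Cox5b, Cox7c, Ndufa5, Ndufa7, Ndufa10, Ndufab1, Ndufaf4, Ndufaf8, Ndufb10, Ndufc1, Ndufs4, Ndufs7 and Uqcc1. The leading transcript differed between the libraries for Atp5s, Cox6b2, Ndufa6, Ndufa10, Ndufa11 and Ndufv1. For Cox6b2, the transcript Cox6b2-208 held 13.8% in library 1 and 38.8% in library 2. At the other end, Ndufaf5, with 3 annotated transcripts, had 100.0% of its TPM in 1 coding transcript in both libraries. Sdhd, Uqcrfs1 and Ndufa8 have only 1 annotated transcript each, so their 100.0% was fixed by the annotation.

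**Figure D5:**
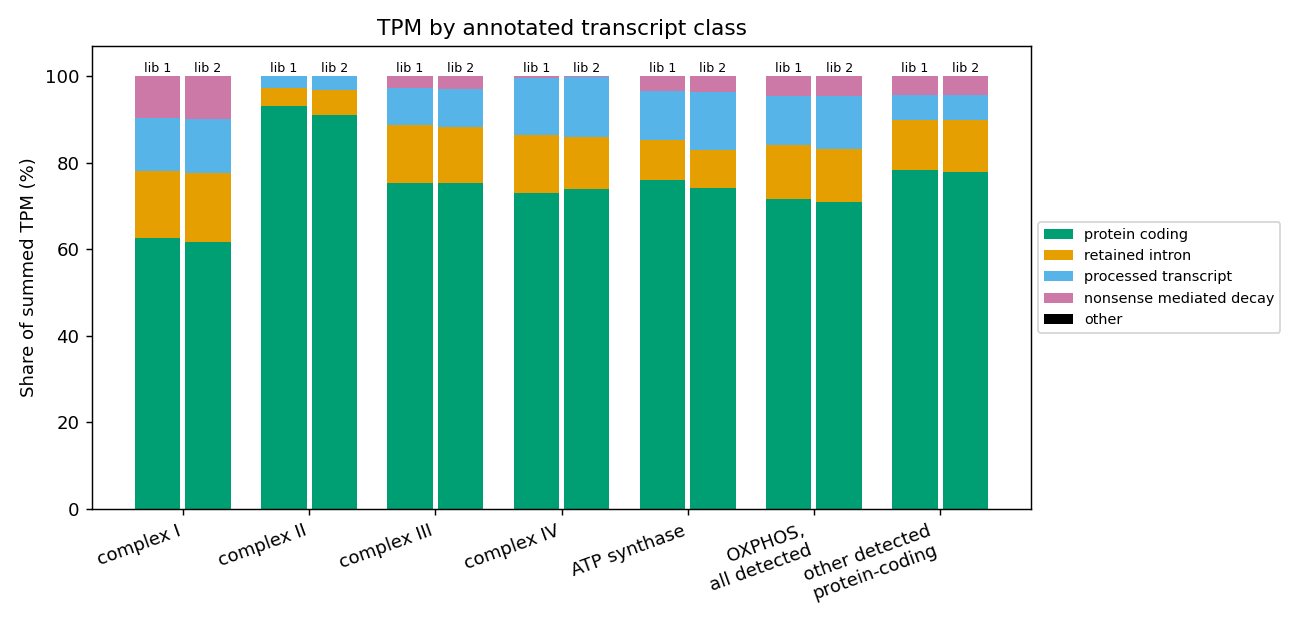
Share of summed TPM (%) by annotated transcript class for the detected genes of each complex with its assembly factors, for all detected genes described here and for other detected protein-coding genes, with library 1 left of library 2. Coding transcripts take 93.0% and 91.0% in complex II and 62.7% and 61.7% in complex I, and the libraries lie close to each other in every group.

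Related genes outside the symbol rule were described from lists. All 38 other assembly factors were detected, with a median TPM of 35.0 in library 1 and 35.1 in library 2, close to the Ndufaf genes. Cox20 (139 and 142), Cox16 (146 and 119) and Cox14 (132 and 132), all needed to build complex IV, were the highest by mean level. Of these factors, 10 were called higher in library 1 and 11 higher in library 2, against 23.9% and 46.4% of all genes tested. At 1.5-fold or more, the shares over all genes tested were 11.7% and 35.0%. Of the 7 called and at least 1.5-fold apart by counts, given here with their TPM, Atpif1 (134 and 80.9), the inhibitor of ATP synthase, and Timmdc1 (7.12 and 5.48) were higher in library 1. Cox11 (15.7 and 28.8), Sco2 (4.76 and 15.7), Nubpl (4.68 and 10.2), Lyrm7 (3.02 and 5.78) and Pet117 (1.83 and 6.34) were higher in library 2.

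All 20 genes of electron entry and coenzyme Q were detected, at a median TPM of 25.8 in library 1 and 22.0 in library 2. Of these, 9 were called higher in library 1 and 4 in library 2, against 23.9% and 46.4% of all genes tested. Etfa (128 and 121) and Etfb (102 and 88.9), which carry electrons from fatty acid oxidation, were the highest. Coq8a (35.8 and 22.2), Coq10a (31.3 and 21.9) and Prodh (6.62 and 3.0) were called and at least 1.5-fold higher in library 1, and Coq3 (6.35 and 11.1) in library 2.

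Among carriers of the inner membrane, Ucp2, an uncoupling protein family member of immune cells, was at a TPM of 1566 (library 1) and 1454 (library 2), above Atp5b. The adenine nucleotide carrier Slc25a5 was at 581 and 557, the phosphate carrier Slc25a3 at 253 and 302, and Slc25a4, the form known from heart and muscle, at 88.8 and 102. Ucp1 was at 6 and 5 counts, Ucp3 at 2 and 35 counts and the testis form Slc25a31 at 0 and 2 counts. Of the 7 carriers, 2 were called higher in library 1 and 3 in library 2, against 23.9% and 46.4% of all genes tested.

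Of 15 regulators of mitochondrial biogenesis, 14 were detected. Myc (142 and 195), the mitochondrial polymerase Polg (99.8 and 105) and the mitochondrial transcription factor Tfam (86.3 and 87.8) were the highest. Nrf1, whose motif is described above, was at 80.7 and 63.8, Gabpa at 40.0 and 39.6 and Yy1 at 10.8 and 12.1. Ppargc1b was at 10.7 and 9.67, while Ppargc1a, the related coactivator best known from muscle and brown fat, had 1 count in library 1 and 50 counts in library 2. Of the 15 genes, 6 were called higher in library 1 and 2 in library 2, against 23.9% and 46.4% of all genes tested. Ppargc1a was the one called and at least 1.5-fold apart.

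All 4 genes of a list linked to supercomplexes and low oxygen were detected. Higd2a, which takes part in complex IV and supercomplex assembly, had TPM values of 126 (library 1) and 157 (library 2), the hypoxia-induced relative Higd1a at 75.1 and 80.0, and the oxygen-regulated transcription factor Hif1a at 116 and 112. Of the 4, Hif1a was called higher in library 1, Higd2a and Higd1a were called higher in library 2, and none was 1.5-fold apart.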

How the data were processed

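Per the labels, polyadenylated RNA of 1 biosample was sequenced as 2 technical libraries. Expected counts, TPM and FPKM in the large gene tables were derived by the authors from a transcriptome alignment (mm10, GENCODE M21), per the deposited description and file headers. Expected counts divide reads that map to several genes. The transcript tables hold TPM per transcript, and the deposited percent of a gene in each transcript was not used; shares were computed from TPM. The small gene tables hold counts that the authors made from an mm10 alignment (GENCODE M4). The aligner, the quantifier, duplicate removal and strand use are not stated in the sources used here, so antisense and overlapping genes are uncertain. Of 81881 rows, 26345 that name no GENCODE gene were left out (0.201% and 0.235% of counts in library 1 and library 2).

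Levels are the authors' TPM, and a gene counts as detected where neither library's TPM is below 1. After rounding, expected counts were tested with a 2-sided exact binomial test (scipy 1.17.1) for genes with at least 10 summed counts, with Benjamini-Hochberg adjustment over all 24253 genes. Ratios add 0.5 counts. Intervals and floors cover counting error only, as PCR copies of a molecule are counted with it, and the p-values compare these libraries, not animals or conditions. Over all tested genes the chi-square per degree of freedom between the libraries was 33.5. The test was checked on simulated counts with counting error only. Those counts lack the excess spread seen here, so the check does not cover it. Scaling alternatives used edgeR 4.0.16 (TMM) and DESeq2 1.42.0 in R 4.3.3. Read sharing was counted in 50-base windows of GENCODE M21 transcripts, because length exceeded effective length by 49 bases. Promoter windows of the genes described were matched by symbol or synonym, and those of other genes by symbol.

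The genes, the lists and the tests were chosen with an earlier description of these data known. Per list, the 3 highest and 2 lowest genes are named, with all genes under the detection threshold, all alternative forms, the 5 largest called ratios in each direction with at least 100 counts, and genes with opposite calls or a leading transcript that differs or is not coding. Of related genes, the 3 highest of a list and those at least 1.5-fold apart are named. Any further gene is named with its values already known. Not every gene that the rule names is reported here.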

Additional observations from a re-analysis of the deposited data

How the results depend on the processing

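No paired analysis was possible because the 2 libraries form 1 group. The number of genes detected was 91 at a TPM of at least 5, 95 at a TPM of at least 0.1 and 89 at 10 counts or more in the smaller table, against 92 in the report. With library 1 alone it was 92, and with library 2 alone 94. Calls higher in library 1 numbered 47 in the report, 64 with TMM factors, 65 with DESeq2 size factors, 47 with no filter on low counts and 9 in the smaller table. Calls higher in library 2 numbered 8 in the report, 4 with TMM factors, 4 with DESeq2 size factors, 9 with no filter and 4 in the smaller table. Of the 55 calls, 51 were made in the same direction with either TMM factors or DESeq2 size factors, and 11 in the smaller table, where 2 went the opposite way. The median log2 ratio was 0.122 in the report, 0.218 with TMM factors, 0.229 with DESeq2 size factors, 0.121 with a pseudocount of 5 counts and 0.112 as a ratio of TPM plus 1, and it reversed to -0.034 in the smaller table; the cause was not tested. The median over all detected genes was -0.008 in the report's scaling, 0.089 with TMM factors and 0.099 with DESeq2 size factors, below that of the genes described here in each, but 0.001 in the smaller table, above it. Of all genes tested, 70.3% were called in the large table and 54.3% of 14432 in the smaller one. Median TPM per complex from library 1 alone and library 2 alone was 141 and 133 for complex I subunits, 28.7 and 28.0 for its assembly factors, 168 and 157 for complex II, 227 and 206 for complex III, 204 and 194 for all 19 complex IV genes, undetected ones included, and 283 and 285 for ATP synthase. The median share of the leading transcript was 80.6% and 78.2%. FPKM values moved no median or family share beyond the spread between libraries. TPM is FPKM rescaled to a fixed total, so this was fixed in advance and is no separate check. Of the 5 genes with the largest called ratios in each direction, Ndufa6 lost its call with TMM factors (adjusted p = 0.309, exact binomial test), DESeq2 size factors (0.408) and the smaller table (0.208), and Atp5g2 (0.0906) and Ndufaf3 (0.205) in the smaller table.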
